A study of Mus musculus with 24 samples.

Results

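The genes described here were 9 genes of the complement system, taken by name from the 37991 genes of the count table: Cfd, Cfb, C3, C2, C4b, C6, C7, Cd55 and C3ar1. All 9 passed the filter on low counts and were among the 20035 genes tested. RNA-seq was done on fat pads labelled subcutaneous inguinal, taken from 24 female mice at 26 weeks of age, with 1 library per mouse. The mice came from 4 inbred strains, each with 3 mice on each of 2 diets. C57BL/6J is the common reference strain. NZO/HiLtJ is prone to obesity and diabetes. The remaining strains, WSB/EiJ and CAST/EiJ, descend from wild mice. The standard diet took 17% of its energy from fat. The high-fat diet took 45% of its energy from fat, held 34% sucrose by weight and was given from 4 weeks of age. The labels name no engineered allele and no treatment other than the diets, and all groups share sex, age and supplier.

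Complement is a set of plasma and cell-surface proteins that mark and lyse targets and call in immune cells. The classical and lectin routes cleave C4 and C2, the alternative route joins factor B to C3b, and both make an enzyme that cleaves C3. Fat is a known source of the alternative route, because adipocytes secrete factor D, named adipsin there, which cuts factor B. The late components C5 to C9 form the membrane attack complex, CD55 on host cells breaks up the C3-cleaving enzymes, and the C3a receptor on myeloid cells senses the small fragment of C3.

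Levels are given in normalised CPM, the usual unit of counts relative to the library total, here after scaling by trimmed means. Totals ran from 47651641 to 84009032 counts per library. The libraries differed in the cells they held. The summed CPM of 15 adipocyte transcripts was 399 in CAST/EiJ high-fat replicate 1 and 16000 to 53100 in the other 23 libraries, so adipocyte markers were close to absent from that library alone. The same library had the highest sum of 10 epithelial transcripts (1250 CPM, against 5.76 to 1170) and of 7 smooth muscle transcripts (12700 CPM, against 166 to 5790). The WSB/EiJ high-fat libraries had the next highest epithelial sums, 249 to 1170 CPM, where WSB/EiJ standard-diet libraries had 13.3 to 47.6. The mesothelial transcripts Wt1 and Upk3b, which mark the lining of the body cavity, were present in all libraries, at 15.6 to 136 CPM and 8.38 to 137 CPM. In bulk tissue, fewer cells of a type and less RNA per cell cannot be told apart. All groups share 1 estimate of the spread, so results are given with all 24 libraries and then without that CAST/EiJ library.

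**Figure D1:**
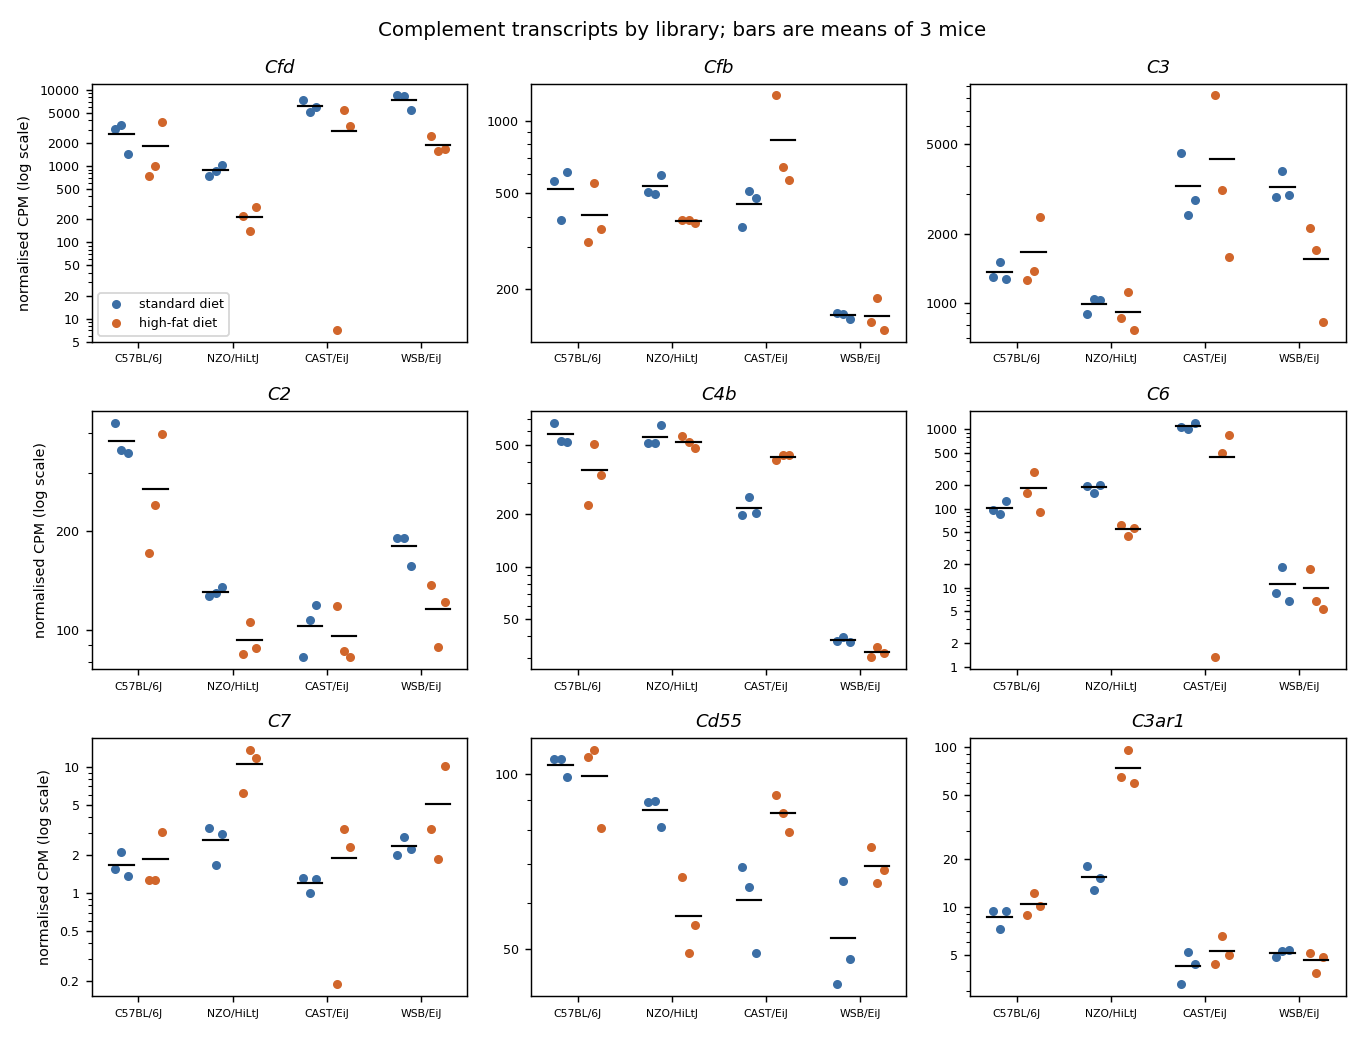
Normalised CPM (vertical axis, log scale) of the 9 genes in each of the 24 libraries, by strain, with blue points for the standard diet, orange points for the high-fat diet and bars for means of 3 mice. Cfd spans 7.08 to 8440 CPM, C4b is lowest in the 6 WSB/EiJ libraries, and C3ar1 is highest in the 3 NZO/HiLtJ high-fat libraries.

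Several of these genes have near copies, which bears on how reads could be assigned to them. The counts of all strains were made on 1 genome build (NCBIM37), and whether reads aligned equally well in each strain was not tested. Of the windows of 100 bases, the read length, in the longest coding transcript (GENCODE vM21), 81% of those of Cfb and 53.2% of those of C2 also occur in Gm20547, a gene model that runs over both. The share was 16.5% for C4b, all of it with C4a, and 7.03% for Cd55, nearly all with Cd55b. It was 0 for the other 5 genes. In the RefSeq annotation (GRCm38.p6), C4a is a transcribed pseudogene on chromosome 17, which also holds C4b, Cfb, C2 and C3; C6 and C7 are on chromosome 15, Cfd on 10, Cd55 on 1 and C3ar1 on 6. The coding bases of C4b matched C4a at 96.1% of 5204 aligned bases, and those of Cd55 matched Cd55b at 93.2% of 1122. Over all aligned bases, C4b and C4a differ at 201 of 5204 and Cd55 and Cd55b at 76 of 1122. The stretches of 60 bases with the most differences are shown as the extreme, not as the usual scale of difference. Capitals mark the 13 differing bases of each pair.
C4b: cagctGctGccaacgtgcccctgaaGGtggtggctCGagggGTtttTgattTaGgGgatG
C4a: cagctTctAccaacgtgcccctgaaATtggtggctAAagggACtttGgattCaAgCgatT
Cd55: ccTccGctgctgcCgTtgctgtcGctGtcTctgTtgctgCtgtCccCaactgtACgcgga
Cd55b: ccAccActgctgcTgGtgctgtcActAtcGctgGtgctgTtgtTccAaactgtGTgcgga

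Across the 9 genes, Cfd and C3 were the most abundant. Cfd ranked 24 and C3 ranked 37 among the tested genes by mean level, while C7 ranked 12948. Per kilobase of transcript, the median over libraries was 2240 CPM for Cfd, 302 for C3, 141 for Cfb, 78.4 for C4b, 48.6 for C2, 32.5 for C6, 30.5 for Cd55, 1.62 for C3ar1 and 0.812 for C7. By these medians Cfd, C3 and Cfb headed the order of levels and the C3a receptor and C7 stood at its end. The order differed by strain. On the standard diet, C6 stood above Cfb in CAST/EiJ (384 against 164 CPM per kilobase). In WSB/EiJ on that diet, C2 stood above Cfb (68 against 56.6). A difference is called where edgeR's quasi-likelihood test gave a Benjamini-Hochberg adjusted p under 0.05, and log2 fold changes are given with their standard errors.

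Cfd encodes factor D, the serine protease that starts the alternative route. In C57BL/6J, Cfd lay at 3080, 3400 and 1440 CPM on the standard diet and at 748, 992 and 3790 CPM after high-fat feeding. In NZO/HiLtJ, it lay at 750, 872 and 1040 CPM on the standard diet and at 220, 142 and 290 CPM after high-fat feeding. These were the lowest groups on either diet, and the NZO/HiLtJ diets did not overlap, as for 46.5% of all genes tested. In CAST/EiJ, Cfd lay at 7250, 5050 and 5950 CPM on the standard diet and at 7.08, 5460 and 3300 CPM after high-fat feeding. In WSB/EiJ, it lay at 8440, 8300 and 5470 CPM on the standard diet and at 2440, 1570 and 1690 CPM after high-fat feeding, again with no overlap, as for 40% of all genes tested. The library with 7.08 CPM was the one nearly without adipocyte transcripts, and there Cfd ranked 10685 by count, against ranks between 9 and 1318 in the others.

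Averaged over strains, Cfd fell on the high-fat diet by 1.39 ± 0.51 on the log2 scale, which is 2.63-fold (adjusted p = 0.0498). That call was lost when any of 21 of the 24 libraries was left out (adjusted p from 0.0513 to 0.0902); the exceptions were C57BL/6J high-fat replicate 3 and CAST/EiJ high-fat replicates 1 and 2. Without CAST/EiJ high-fat replicate 1, the average fall was 1.25 ± 0.25 (log2 fold change -1.25, adjusted p = 0.00207). In that fit Cfd also fell in NZO/HiLtJ (-2.03 ± 0.49, adjusted p = 0.0119) and in WSB/EiJ (-1.97 ± 0.49, adjusted p = 0.00497). With all libraries the same log2 differences carried standard errors of 1.05 in both strains and were not called, with adjusted p = 0.373 and 0.178. In C57BL/6J the log2 difference was -0.52 ± 1.01 with an interval from -2.66 to 1.63, and the diets overlapped. The strain by diet interaction for Cfd had an adjusted p of 0.809 with all libraries and 0.14 without CAST/EiJ high-fat replicate 1, and was not called in either fit.

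The sum of the 15 adipocyte transcripts moved along with Cfd in NZO/HiLtJ and WSB/EiJ. It was 39100 to 40000 CPM in NZO/HiLtJ on the standard diet and 28100 to 32400 CPM after high-fat feeding, and 29100 to 37300 CPM against 16000 to 23400 CPM in WSB/EiJ. Taken singly with all libraries, 0 of the 15 were called in NZO/HiLtJ, against 4.89% of all genes. In WSB/EiJ 1 was called, lower, against 21.5%. The median log2 differences of the 15 were -0.52 and -1.05. As a percentage of that sum, Cfd was 2.28 ± 0.336 (SD, n = 3) against 0.726 ± 0.208 in NZO/HiLtJ, and 19 ± 1.42 against 9.95 ± 2.12 in WSB/EiJ, standard diet first. With the adipocyte sum as a covariate, Cfd fell by 1.55 on the log2 scale in NZO/HiLtJ (adjusted p = 0.0364), while in WSB/EiJ the difference was -0.98 and not called (adjusted p = 0.11). In that fit it was 0.02 in CAST/EiJ and -0.34 in C57BL/6J, and the average over strains was -0.71 and missed the threshold (adjusted p = 0.0547). The covariate took in all libraries, with CAST/EiJ high-fat replicate 1 at 399 CPM and the others at 16000 to 53100 CPM. No fit with the covariate left that library out, so how far it sets the adjustment was not tested. The part that adipocyte content takes in the diet difference was not tested beyond this.

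**Figure D2:**
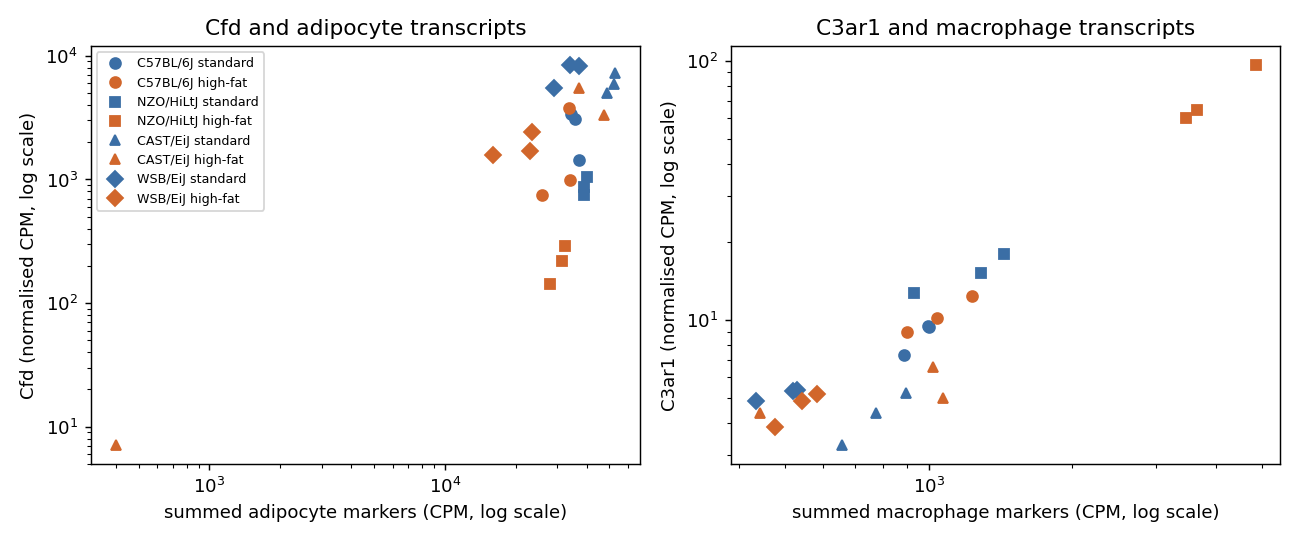
Left, Cfd (normalised CPM) against the summed CPM of 15 adipocyte transcripts; right, C3ar1 (normalised CPM) against the summed CPM of 14 macrophage transcripts, all axes on log scales and each point 1 library. The CAST/EiJ high-fat library at 399 CPM of adipocyte transcripts has 7.08 CPM of Cfd, and the 3 NZO/HiLtJ high-fat libraries stand apart at 3470 to 4850 CPM of macrophage transcripts.

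Between strains on the standard diet, NZO/HiLtJ had 8.34-fold less Cfd than WSB/EiJ (log2 fold change -3.06 ± 1.09, adjusted p = 0.0438). The call was lost on leaving out any of 14 libraries (adjusted p from 0.0518 to 0.128): all 3 standard-diet libraries of NZO/HiLtJ, CAST/EiJ and WSB/EiJ, the 3 NZO/HiLtJ high-fat libraries, and replicates 1 and 2 of C57BL/6J on the standard diet. Without CAST/EiJ high-fat replicate 1, Cfd was also lower in NZO/HiLtJ than in C57BL/6J (-1.57 ± 0.48, adjusted p = 0.0353) and in CAST/EiJ (-2.79 ± 0.51, adjusted p = 2.34e-04), and higher in WSB/EiJ than in C57BL/6J (1.5 ± 0.48, adjusted p = 0.0227). WSB/EiJ and CAST/EiJ, next to each other at the top of the order, differed by -0.28 ± 1.01 (CAST/EiJ minus WSB/EiJ, interval from -2.42 to 1.86), which is within the error.

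Cfb encodes factor B, the substrate of factor D. In C57BL/6J it lay at 562, 387 and 614 CPM on the standard diet and at 313, 551 and 354 CPM after high-fat feeding. In NZO/HiLtJ it lay at 509, 499 and 596 CPM, then at 386, 388 and 377 CPM. In CAST/EiJ it lay at 363, 512 and 478 CPM, then at 1280, 646 and 567 CPM, and in WSB/EiJ at 159, 158 and 150 CPM, then at 146, 183 and 135 CPM. The 6 WSB/EiJ libraries were the 6 lowest of all. On the standard diet Cfb was 3.35-fold lower in WSB/EiJ than in C57BL/6J (log2 fold change -1.74 ± 0.27, adjusted p = 1.79e-04), NZO/HiLtJ exceeded WSB/EiJ 3.43-fold (adjusted p = 1.1e-04) and CAST/EiJ exceeded it 2.89-fold (adjusted p = 3.21e-04). The other 3 strains overlapped, and NZO/HiLtJ minus C57BL/6J was 0.04 ± 0.26 with an interval from -0.52 to 0.59. No diet effect on Cfb was called in any strain. In CAST/EiJ the high-fat libraries all lay above the standard ones (0.88 ± 0.26, adjusted p = 0.0557), where 20% of all genes tested had no overlap. The highest value came from the library nearly without adipocyte transcripts, and leaving out replicate 2 or 3 of the high-fat group gave adjusted p = 0.0242 or 0.0123.

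C3 encodes the central protein on which all routes converge. C57BL/6J libraries had 1290, 1510 and 1270 CPM on the standard diet and 1260, 1380 and 2390 CPM after high-fat feeding. NZO/HiLtJ libraries had 893, 1040 and 1030 CPM, then 855, 1110 and 756 CPM. CAST/EiJ libraries had 4570, 2430 and 2820 CPM, then 8190, 3150 and 1590 CPM, and in WSB/EiJ at 2930, 3790 and 2990 CPM, then at 2140, 1710 and 822 CPM. The wild-derived strains had the higher levels on the standard diet, with no overlap with the other strains. In those pairs of strains, 53.1% to 62.7% of all genes tested had no overlap. C3 was 2.42-fold higher in CAST/EiJ than in C57BL/6J (1.27 ± 0.45, adjusted p = 0.0412). NZO/HiLtJ stood 3.31-fold below CAST/EiJ (adjusted p = 0.00651) and 3.28-fold below WSB/EiJ (adjusted p = 0.00872). The call of CAST/EiJ against C57BL/6J was lost without any of 6 standard-diet libraries (adjusted p from 0.0509 to 0.18): the 3 of C57BL/6J, replicates 1 and 3 of CAST/EiJ and replicate 2 of NZO/HiLtJ. WSB/EiJ minus C57BL/6J was of the same size, 1.26 ± 0.45, and missed the threshold (adjusted p = 0.0516); without CAST/EiJ high-fat replicate 1 it passed (1.27 ± 0.33, adjusted p = 0.00689).

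No diet difference of C3 was called in any strain with all libraries. In WSB/EiJ the high-fat libraries all lay below the standard ones (-1.06 ± 0.45, adjusted p = 0.0936), where 40% of all genes tested had no overlap. C3 fell there without CAST/EiJ high-fat replicate 1 (-1.06 ± 0.33, adjusted p = 0.0182). In CAST/EiJ the sign rested on 1 library: the log2 difference was 0.40 ± 0.44 with it and -0.47 without it. That library held the highest C3 of the study, 8190 CPM, together with the lowest Cfd.

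Over the other 23 libraries, the likeness of Cfd and C3 (Pearson's r of log2 CPM with a prior count of 2) was 0.84, and with it 0.13. The libraries share strain, diet and scaling, so this is a description. Their promoters are shown because of this likeness, as the 250 bases before the start in RefSeq (GRCm38.p6), Cfd at chr10:79890603-79890852 on the plus strand and C3 at chr17:57228137-57228386 on the minus strand. Capitals mark TTNNGNAA, the half-site pattern of C/EBP, a factor family of adipocytes.
Cfd: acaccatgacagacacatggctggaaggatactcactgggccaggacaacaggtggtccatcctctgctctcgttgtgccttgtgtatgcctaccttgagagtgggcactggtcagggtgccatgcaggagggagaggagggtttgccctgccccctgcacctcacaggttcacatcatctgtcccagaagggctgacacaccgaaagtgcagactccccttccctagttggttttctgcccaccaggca
C3: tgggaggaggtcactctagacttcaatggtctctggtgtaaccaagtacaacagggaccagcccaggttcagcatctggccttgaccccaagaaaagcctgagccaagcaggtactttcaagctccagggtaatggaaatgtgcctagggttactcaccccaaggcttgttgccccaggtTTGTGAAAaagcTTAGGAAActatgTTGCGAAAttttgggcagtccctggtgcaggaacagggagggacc
On both strands, the C3 window held TTNNGNAA at 3 positions and the Cfd window at 0, where 36.8% of 32851 promoter windows of the same length held it at least once. The NF-kB pattern (GGG, then 5 of any base, then CC) was in both windows, at 1 position in Cfd and at 4 in C3, some of them overlapping, and in 45.8% of promoters. Neither window held CCAAT (33.8% of promoters), TATAAA (12.4%), TTCNNNGAA (7.02%) or GAGGAA (23.3%). A match describes letters only.

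C2 encodes the protease that joins C4b in the classical and lectin routes. Values in C57BL/6J were 429, 354 and 347 CPM on the standard diet and 172, 240 and 396 CPM after high-fat feeding. Values in NZO/HiLtJ were 127, 130 and 135 CPM, then 84.2, 106 and 88.3 CPM. Values in CAST/EiJ were 82.5, 107 and 119 CPM, then 118, 86.4 and 82.7 CPM, and in WSB/EiJ at 191, 191 and 157 CPM, then at 137, 88.7 and 122 CPM. C57BL/6J stood highest on the standard diet and its 3 libraries overlapped no other strain. In its pairs with the other strains, 46.5% to 57.5% of all genes tested had no overlap. C2 was lower than in C57BL/6J by 2.88-fold in NZO/HiLtJ (adjusted p = 5.10e-04), 3.66-fold in CAST/EiJ (adjusted p = 1.31e-05) and 2.10-fold in WSB/EiJ (adjusted p = 0.0037). It was also lower in CAST/EiJ than in WSB/EiJ (-0.81 ± 0.24, adjusted p = 0.0186), a call lost without replicate 1 of CAST/EiJ or replicate 1 or 2 of WSB/EiJ on the standard diet (adjusted p from 0.0593 to 0.0876).

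Averaged over strains, C2 fell on the high-fat diet by 0.43 ± 0.12 on the log2 scale, or 1.34-fold (log2 fold change -0.43, adjusted p = 0.0167), and kept its call on leaving out each library in turn. The estimate was negative in all 4 strains, from -0.10 in CAST/EiJ to -0.63 in WSB/EiJ, and no single strain was called with all libraries. Because C2 and Cfb both share sequence with Gm20547, the 3 were also summed, an alternative chosen after the data were examined. The sum, which Cfb dominates in most groups, had an average diet difference of -0.11 (adjusted p = 0.492). Summed, the difference of NZO/HiLtJ from C57BL/6J was no longer called (-0.4, adjusted p = 0.352), and that of CAST/EiJ from WSB/EiJ changed sign (0.77, adjusted p = 0.0225).

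C4b encodes complement C4, the protein that classical and lectin proteases cleave first. In C57BL/6J it lay at 669, 527 and 521 CPM on the standard diet and at 227, 505 and 337 CPM after high-fat feeding. In NZO/HiLtJ it lay at 509, 508 and 644 CPM, then at 557, 520 and 480 CPM. In CAST/EiJ it lay at 199, 252 and 204 CPM, then at 406, 437 and 438 CPM, and in WSB/EiJ at 37.8, 39.7 and 37.4 CPM, then at 30.4, 34.9 and 32.1 CPM. The 6 WSB/EiJ libraries lay between 30.4 and 39.7 CPM and all others at 199 CPM or more. On the standard diet, C4b was 14.9-fold lower in WSB/EiJ than in C57BL/6J (-3.90 ± 0.22, adjusted p = 5.3e-10), and NZO/HiLtJ and CAST/EiJ exceeded WSB/EiJ 14.4-fold (adjusted p = 6.11e-10) and 5.7-fold (adjusted p = 4.31e-08). CAST/EiJ stood between, 2.62-fold below C57BL/6J (adjusted p = 4.28e-05) and 2.53-fold below NZO/HiLtJ (adjusted p = 4.87e-05). NZO/HiLtJ and C57BL/6J differed by -0.05 ± 0.20, with an interval from -0.47 to 0.37.

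The copy C4a was also lowest in WSB/EiJ. Its highest mean on the standard diet was in NZO/HiLtJ and not in C57BL/6J. After high-fat feeding its highest mean was in CAST/EiJ, at 623 ± 24.3 CPM (SD, n = 3). On the standard diet C4a was at 45.2 ± 0.841 CPM in WSB/EiJ, and at 409 ± 54.2, 483 ± 66.7 and 328 ± 36.4 CPM in C57BL/6J, NZO/HiLtJ and CAST/EiJ. The share of C4b among the counts of both copies was nearly fixed within a strain and differed between strains: 57.9% to 58.6% in C57BL/6J, 52.3% to 54.3% in NZO/HiLtJ, 39.3% to 40.5% in CAST/EiJ and 45.5% to 46.2% in WSB/EiJ, all on the standard diet. The part that the assignment of shared reads takes in these shares was not tested. The sum of both copies was 83.6 ± 2.05 CPM in WSB/EiJ on the standard diet and 546 ± 65.3 CPM or more in the other strains, so the sum was also lowest in WSB/EiJ.

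The diet difference of C4b depended on the strain (interaction adjusted p = 0.0182). C4b rose on the high-fat diet in CAST/EiJ, by 1.95-fold (0.97 ± 0.20, adjusted p = 0.0323), and the 3 high-fat libraries there lay within 406 to 438 CPM, including the one nearly without adipocyte transcripts. In C57BL/6J it was lower on the high-fat diet without a call (-0.68 ± 0.20, unadjusted p = 0.00281, adjusted p = 0.93), and NZO/HiLtJ and WSB/EiJ had -0.09 ± 0.20 and -0.24 ± 0.20. The CAST/EiJ call was lost without any of its standard-diet libraries or without replicate 1 of its high-fat group, with adjusted p from 0.0567 to 0.104 and log2 fold changes from 0.90 to 1.08. It was also lost in a fit of the 6 CAST/EiJ libraries alone (0.96, adjusted p = 0.571). The fibroblast transcripts of CAST/EiJ were at 2590 to 5230 CPM on the standard diet and at 5400 to 9990 CPM after high-fat feeding, and their part in the C4b difference was not tested.

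**Figure D3:**
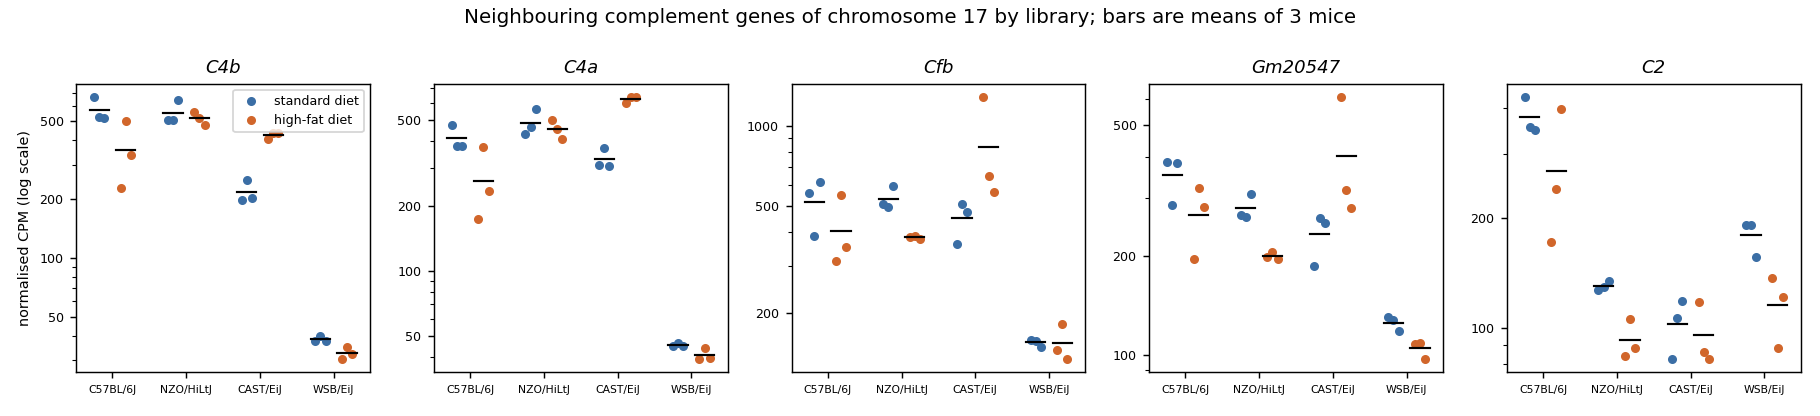
Normalised CPM (vertical axis, log scale) of C4b, its copy C4a, Cfb, the overlapping gene model Gm20547 and C2 in each library, by strain and diet, with bars for means of 3 mice. C4b and C4a are both lowest in WSB/EiJ, at 38.3 and 45.2 CPM on the standard diet, and C2 is highest in C57BL/6J.

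C6 and C7 encode components of the membrane attack complex. C6 had the widest strain differences by fold. C57BL/6J libraries had 97.1, 85 and 126 CPM on the standard diet and 157, 290 and 90.1 CPM after high-fat feeding. NZO/HiLtJ libraries had 195, 157 and 201 CPM, then 62.7, 44.4 and 56.6 CPM. CAST/EiJ libraries had 1070, 1020 and 1220 CPM, then 1.32, 499 and 853 CPM, and in WSB/EiJ at 8.5, 18.3 and 6.75 CPM, then at 17.2, 6.8 and 5.41 CPM. CAST/EiJ stood highest and WSB/EiJ lowest on the standard diet, with no overlap between any strains. By pair of strains, 46.5% to 62.7% of all genes tested had no overlap. CAST/EiJ exceeded WSB/EiJ by 98.9-fold (6.63 ± 1.24, adjusted p = 6.41e-04) and C57BL/6J by 10.8-fold (3.43 ± 1.07, adjusted p = 0.0222). NZO/HiLtJ exceeded WSB/EiJ by 16.5-fold (4.04 ± 1.10, adjusted p = 0.0105), and WSB/EiJ was 9.18-fold below C57BL/6J (-3.20 ± 1.06, adjusted p = 0.0376). The difference of C57BL/6J from CAST/EiJ missed the threshold without any of its 3 standard-diet libraries (adjusted p from 0.0602 to 0.0777), and that from WSB/EiJ without any of the 6 libraries compared (0.0578 to 0.128).

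The diet difference of C6 was not called with all libraries. In NZO/HiLtJ the diets did not overlap (-1.76 ± 1.00, adjusted p = 0.438), as for 46.5% of all genes tested. C6 fell there at nearly the same estimate without CAST/EiJ high-fat replicate 1 (-1.75 ± 0.45, adjusted p = 0.0158). In that fit the interaction for C6 had an adjusted p of 0.041, against 0.519 with all libraries. In NZO/HiLtJ the adipocyte sum was also lower on the high-fat diet (39100 to 40000 CPM against 28100 to 32400 CPM). Of its 15 transcripts, 0 were called. The sum of 12 hepatocyte transcripts was lower too (925 to 2510 CPM against 619 to 890 CPM). Of these 12, 11 fell, where 4.89% of all genes were called, and Hp made up most of the high-fat sum (839, 791 and 603 CPM). The part of either list in the C6 difference was not tested. The other CAST/EiJ high-fat libraries, at 499 and 853 CPM, also lay below the standard-diet ones.

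C7 was near the floor of the data in most groups. Values in C57BL/6J were 1.54, 2.12 and 1.36 CPM on the standard diet and 1.26, 1.28 and 3.04 CPM after high-fat feeding, and in CAST/EiJ at 1.31, 1.01 and 1.3 CPM, then at 0.189, 3.21 and 2.33 CPM. In WSB/EiJ it lay at 2.02, 2.81 and 2.23 CPM, then at 3.25, 1.85 and 10.2 CPM. Values in NZO/HiLtJ were 3.3, 1.66 and 2.92 CPM, then 6.19, 13.7 and 11.8 CPM. The diets did not overlap there, as for 46.5% of all genes tested. They overlapped in C57BL/6J and WSB/EiJ, and in CAST/EiJ only through the library at 0.189 CPM. Averaged over strains C7 rose by 1.97-fold (0.98 ± 0.34, adjusted p = 0.0414). Leaving out any of 18 libraries ended that call (adjusted p from 0.0504 to 0.0851); it held without replicate 2 of C57BL/6J, replicate 1 of NZO/HiLtJ, replicate 1 or 3 of CAST/EiJ, or replicate 1 or 2 of WSB/EiJ, all on the high-fat diet. Without CAST/EiJ high-fat replicate 1 C7 rose in NZO/HiLtJ (2.01 ± 0.51, adjusted p = 0.0158); with all libraries that difference was 2.01 ± 0.70 (adjusted p = 0.13). With all libraries no pair of strains was called for C7 on the standard diet. Under alternatives C7 was called higher in NZO/HiLtJ than in CAST/EiJ (log2 1.11, adjusted p = 0.0187 without the 6 libraries with at least 5 CPM of the epithelial marker Epcam; 1.35, 0.0302 with the adipocyte covariate; 1.14, 0.0145 with only those groups). It was called lower in CAST/EiJ than in WSB/EiJ with the covariate (-1.33, adjusted p = 0.0431) and with only those groups (-0.96, adjusted p = 0.0121).

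Cd55 encodes decay-accelerating factor, the surface protein that breaks up the C3-cleaving enzymes. It had the narrowest range of the 9 genes by fold, 43.5 to 110 CPM. In C57BL/6J it lay at 106, 106 and 98.6 CPM on the standard diet and at 107, 110 and 80.6 CPM after high-fat feeding. In NZO/HiLtJ it lay at 89.4, 89.7 and 81 CPM, then at 66.5, 49.2 and 55.1 CPM. The NZO/HiLtJ libraries were lower on the high-fat diet with no overlap, as for 46.5% of all genes tested, and the C57BL/6J libraries overlapped. Values in CAST/EiJ were 69.1, 63.9 and 49.3 CPM, then 91.8, 85.5 and 79.4 CPM, and in WSB/EiJ at 43.5, 65.4 and 48.1 CPM, then at 75, 65 and 68.3 CPM. The high-fat libraries of CAST/EiJ lay above its standard ones, where 20% of all genes tested had no overlap, and the diets overlapped in WSB/EiJ.

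The interaction for Cd55 had an adjusted p of 0.0282. Cd55 fell on the high-fat diet in NZO/HiLtJ, by 1.52-fold (-0.61 ± 0.16, adjusted p = 0.0313). CAST/EiJ and WSB/EiJ had differences of 0.49 ± 0.16 (adjusted p = 0.0643) and 0.41 ± 0.16 (adjusted p = 0.0684), and Cd55 rose in WSB/EiJ without CAST/EiJ high-fat replicate 1 (adjusted p = 0.0455). The NZO/HiLtJ call was lost without any of its standard-diet libraries or replicate 2 or 3 of its high-fat group (adjusted p from 0.0536 to 0.201). The interaction was lost without any of 7 libraries (adjusted p from 0.0514 to 0.0888): replicate 1 of C57BL/6J, replicates 1 and 2 of NZO/HiLtJ and replicates 1 and 3 of WSB/EiJ on the standard diet, and replicates 2 and 3 of NZO/HiLtJ on the high-fat diet. The near copy Cd55b, at 7.11 to 16.5 CPM, also fell in NZO/HiLtJ (-0.70 ± 0.18, adjusted p = 0.0311), and since part of the sequence is shared, its counts are not separate evidence. On the standard diet Cd55 was lower than in C57BL/6J by 1.70-fold in CAST/EiJ (adjusted p = 0.00127) and 1.98-fold in WSB/EiJ (adjusted p = 2.54e-04). NZO/HiLtJ exceeded WSB/EiJ 1.66-fold (adjusted p = 0.0022) and CAST/EiJ 1.43-fold (adjusted p = 0.0164), the last call being lost without replicate 1 of NZO/HiLtJ or replicate 3 of CAST/EiJ on the standard diet (adjusted p = 0.0558 and 0.0958).

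C3ar1 encodes the receptor of C3a, the small fragment released when C3 is cut. C57BL/6J libraries had 9.4, 7.31 and 9.43 CPM on the standard diet and 8.95, 12.3 and 10.2 CPM after high-fat feeding. NZO/HiLtJ libraries had 18, 12.7 and 15.2 CPM, then 64.6, 96.2 and 59.9 CPM. In CAST/EiJ it lay at 3.28, 5.21 and 4.38 CPM, then at 4.38, 6.6 and 4.98 CPM, and in WSB/EiJ at 4.87, 5.32 and 5.37 CPM, then at 5.16, 3.87 and 4.88 CPM. The 3 NZO/HiLtJ high-fat libraries were the highest of the 24 and NZO/HiLtJ on the standard diet came next. C3ar1 rose on the high-fat diet in NZO/HiLtJ by 4.82-fold (2.27 ± 0.22, adjusted p = 9.81e-06). The other strains had differences of 0.27 ± 0.21 in C57BL/6J, 0.31 ± 0.21 in CAST/EiJ and -0.16 ± 0.21 in WSB/EiJ, none called. The interaction (adjusted p = 0.0017) and the average over strains (0.67 ± 0.11, adjusted p = 0.00124) both passed the threshold, as they did on leaving out each library in turn.

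On the standard diet C3ar1 was higher in NZO/HiLtJ than in CAST/EiJ (3.56-fold, adjusted p = 3.83e-06), in WSB/EiJ (2.94-fold, adjusted p = 4.75e-05) and in C57BL/6J (1.75-fold, adjusted p = 0.0231). It was lower than in C57BL/6J by 2.03-fold in CAST/EiJ (adjusted p = 0.00149) and 1.68-fold in WSB/EiJ (adjusted p = 0.0162). The NZO/HiLtJ against C57BL/6J call was lost without replicate 1 or 2 of C57BL/6J or replicate 1 or 3 of NZO/HiLtJ on the standard diet (adjusted p from 0.0607 to 0.128), and the WSB/EiJ against C57BL/6J call without replicate 1 or 3 of C57BL/6J or replicate 1 of WSB/EiJ (0.0655 to 0.0684). Macrophage transcripts moved with it: the sum of 14 of them was 931 to 1440 CPM in NZO/HiLtJ on the standard diet and 3470 to 4850 CPM after high-fat feeding, and 433 to 1230 CPM in the other strains. Of the 14, 8 rose on the high-fat diet in NZO/HiLtJ and 0 fell, where 4.89% of all genes were called. The part of macrophage content in the C3ar1 difference was not tested. In the 3 NZO/HiLtJ high-fat libraries, Cfd was thus at its lowest outside the library nearly without adipocyte transcripts, while C3ar1 was at its highest.

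Read by comparison, the number of the 9 genes called for the diet was small and varied by strain. In C57BL/6J it was 0, where 0.00998% of all genes tested were called and 1 of the 9 had an unadjusted p below 0.05. In NZO/HiLtJ it was 2, Cd55 down and C3ar1 up, against a background of 4.89% of all genes. In CAST/EiJ it was 1, C4b up, against 4.87%. In WSB/EiJ it was 0 against 21.5%, although 3 of the 9 had an unadjusted p below 0.05. Averaged over strains it was 4 against 28.9%, Cfd and C2 down and C7 and C3ar1 up. For the strain by diet interaction it was 3, C4b, Cd55 and C3ar1, against 3.08%. The median log2 difference of the 9 genes on the high-fat diet was -0.06 in C57BL/6J, -0.48 in NZO/HiLtJ, 0.40 in CAST/EiJ and -0.19 in WSB/EiJ, where the medians of all genes were 0.015, -0.007, 0.053 and 0.074.

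Leaving out CAST/EiJ high-fat replicate 1 changed several of these counts along with the background. In NZO/HiLtJ 5 of the 9 were then called against 11.7% of 20385 genes, in CAST/EiJ 0 against 0.304%, and in WSB/EiJ 4 (Cfd, C3, C2 and Cd55) against 39.8%. The average over strains kept the same 4 genes against 28.9%, and the interaction had 4 (C4b, C6, Cd55 and C3ar1) against 17.6%. In CAST/EiJ the C4b difference was then 0.99 with an adjusted p of 0.0567.

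**Figure D4:**
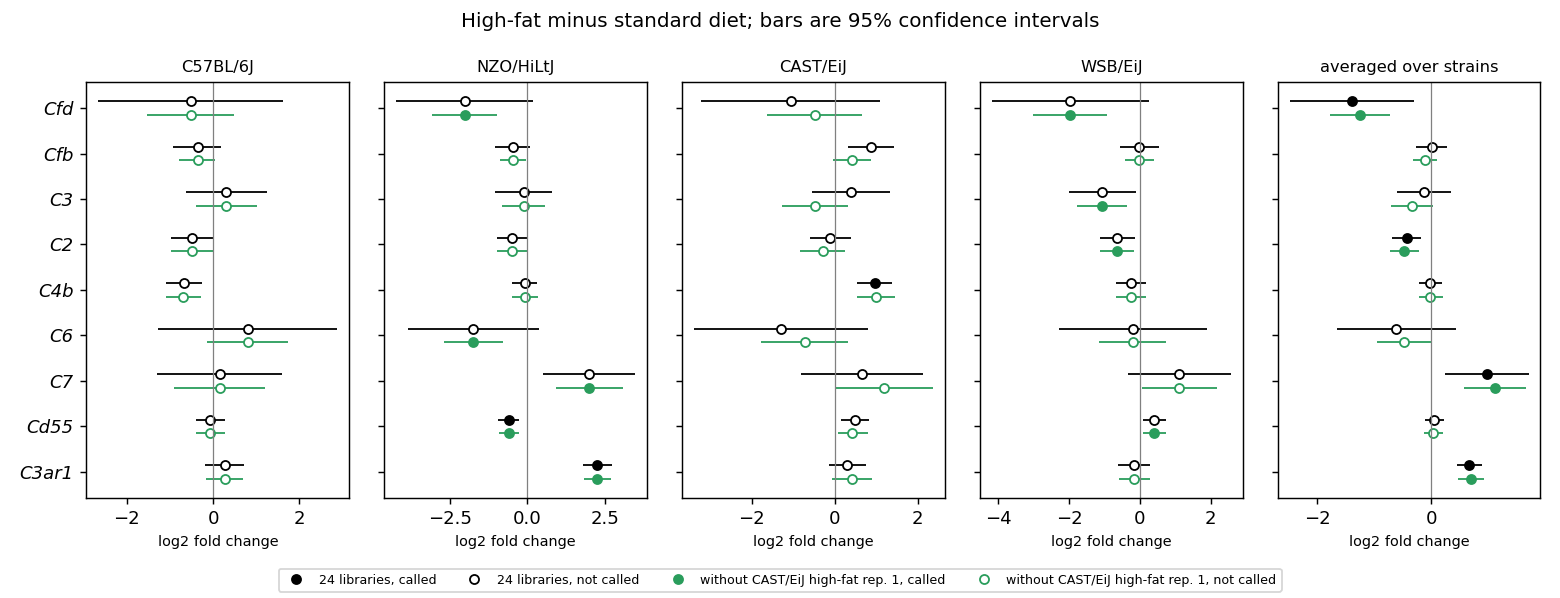
Log2 fold change of the high-fat over the standard diet (horizontal axis) of the 9 genes in each strain and averaged over strains, with 95% confidence intervals, from all 24 libraries (black) and without CAST/EiJ high-fat replicate 1 (green); filled points are called. The intervals of Cfd and C6 shorten without that library while their estimates outside CAST/EiJ stay in place.

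Strain differences were more common. On the standard diet 7 of the 9 genes differed between any of the 4 strains, where 49.6% of all genes did, and on the high-fat diet 8 of the 9 did, against 56%. The exceptions were Cfd (adjusted p = 0.0934) and C7 (0.476) on the standard diet and Cfd (0.0528) on the high-fat diet. Without CAST/EiJ high-fat replicate 1 the counts were 8 against 64.4% on the standard diet, with C7 as the exception, and 9 against 71.6% on the high-fat diet.

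By pair of strains on the standard diet, NZO/HiLtJ differed from C57BL/6J in 2 of the 9 genes (C2 lower, C3ar1 higher) against 8.36% of all genes, the fewest of the pairs. CAST/EiJ differed from C57BL/6J in 6 (C3 and C6 higher, C2, C4b, Cd55 and C3ar1 lower) against 28%. WSB/EiJ differed from C57BL/6J in 6, all lower (Cfb, C2, C4b, C6, Cd55 and C3ar1), against 22%. NZO/HiLtJ differed from CAST/EiJ in 4 against 35.1% and from WSB/EiJ in 7 against 28.1%, and CAST/EiJ differed from WSB/EiJ in 4 against 23.5%. These pairs share strains, so the counts are not independent of each other. Without CAST/EiJ high-fat replicate 1, NZO/HiLtJ differed from C57BL/6J in 3 against 16.2%, WSB/EiJ from C57BL/6J in 8 against 33.8%, and NZO/HiLtJ from CAST/EiJ in 6 against 46.6%, and Cfd was among the added genes in each.

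**Figure D5:**
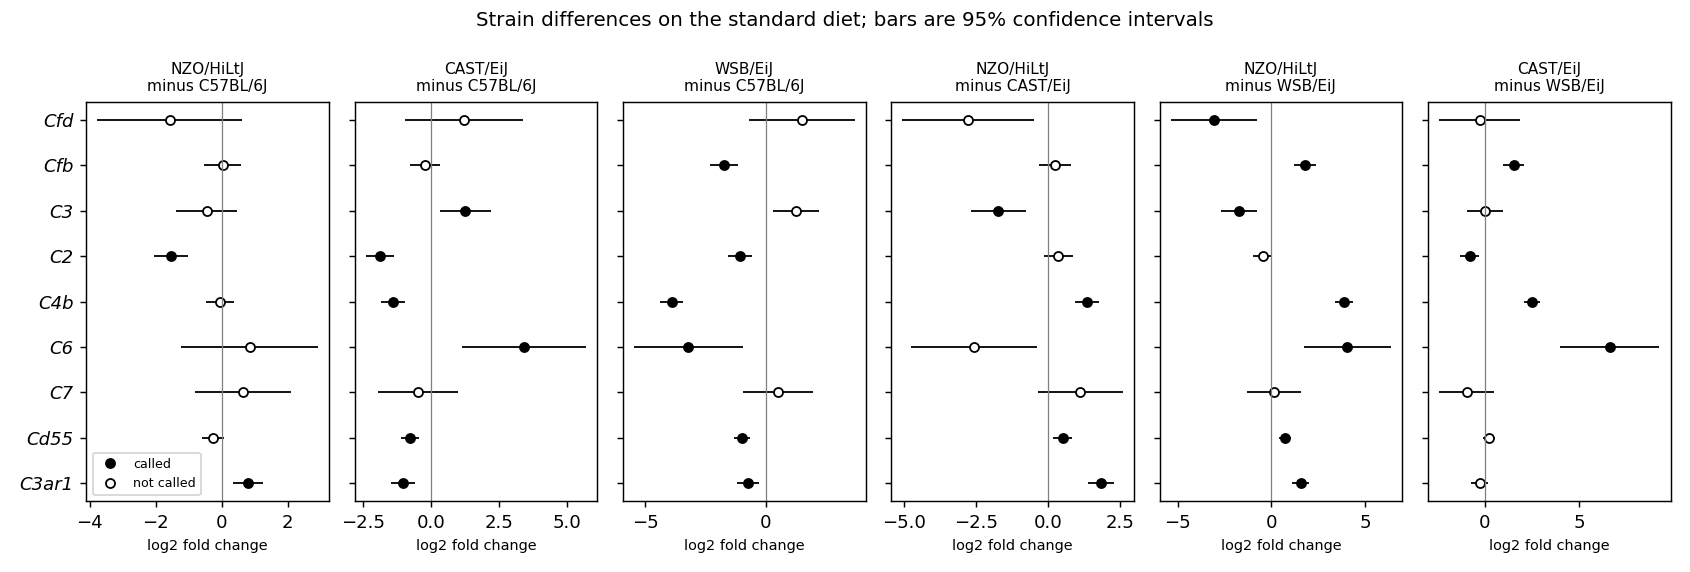
Log2 fold changes (horizontal axis) of the 9 genes for the 6 pairs of strains on the standard diet, with 95% confidence intervals from all 24 libraries; filled points are called. C4b and C6 lie farthest from 0 in the pairs with WSB/EiJ, at -3.90 and -3.20 against C57BL/6J.

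The other complement genes give the setting. Of 50 such genes found in the table, 49 were measured, and on the high-fat diet in NZO/HiLtJ 7 rose and 6 fell, where 4.89% of all genes were called. In CAST/EiJ 2 rose and 4 fell (4.87% of all genes), in WSB/EiJ 3 rose and 3 fell (21.5% of all genes), and in C57BL/6J 0 were called (0.00998% of all genes). The median log2 difference of the 49 was -0.27 in NZO/HiLtJ, -0.15 in CAST/EiJ, 0.19 in WSB/EiJ and 0.02 in C57BL/6J. In NZO/HiLtJ, 4 of 9 receptors rose, among them Itgax and Itgam, the alpha chains of the myeloid integrins that bind cleaved C3, and Vsig4, a macrophage receptor for C3b. Itgax went from 28.7 ± 6.16 to 308 ± 62.6 CPM (SD, n = 3; log2 fold change 3.42 ± 0.47, adjusted p = 3.12e-04), Vsig4 from 1.11 ± 0.171 to 6.21 ± 0.591 CPM and Itgam from 120 ± 21.3 to 307 ± 82.1 CPM. C1qb, a chain of the C1q recognition protein that macrophages make, went from 78.5 ± 9.13 to 177 ± 31 CPM (1.17 ± 0.22, adjusted p = 0.00412), and all 3 C1q chains rose there. Without CAST/EiJ high-fat replicate 1, 10 of the 49 rose and 12 fell in NZO/HiLtJ, where 11.7% of all genes were called. In WSB/EiJ 5 then rose and 6 fell, where 39.8% of all genes were called. Of the NZO/HiLtJ falls in that fit, Fcna had the smallest adjusted p (-1.83 ± 0.25, adjusted p = 1.21e-04).

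The 6 that fell in NZO/HiLtJ with all libraries included C8g, C8b, Cpb2 and Mbl2, which are best known as products of the liver. C8g went from 8.54 ± 4.68 to 1.23 ± 0.262 CPM (-2.79 ± 0.44, adjusted p = 0.001), and C8b, Cpb2 and Mbl2 were at means of 0.892, 1.49 and 2.45 CPM on the standard diet and below 0.06 CPM after high-fat feeding. Hepatocyte transcripts moved with them: their 12-gene sum was 925 to 2510 CPM in NZO/HiLtJ on the standard diet and 619 to 890 CPM after high-fat feeding. Of the 12, 11 fell, where 4.89% of all genes were called. Hp made up most of the high-fat sum: it was at 923, 654 and 724 CPM, then at 839, 791 and 603 CPM. Alb went from 506, 873 and 76.8 CPM to 20.5, 10.7 and 4.44 CPM. The part of the hepatocyte transcripts in these differences was not tested. In CAST/EiJ, C8g, Cpb2, Mbl2 and Vtn fell, and C4a and Itgam rose. The hepatocyte sum there was 458 to 1270 CPM on the standard diet and 153 to 508 CPM after high-fat feeding. Of the high-fat sums, Hp made up 2.49, 496 and 331 CPM. Of the 12 transcripts, 4 fell, where 4.87% of all genes were called, and their part was not tested. These 6 complement genes were no longer called without CAST/EiJ high-fat replicate 1 (adjusted p from 0.0576 for C4a to 0.233 for Itgam), when 0.304% of all genes were called there. In WSB/EiJ, the regulator Clu rose from 70.1 ± 17.6 to 183 ± 64.3 CPM (1.38 ± 0.24, adjusted p = 0.00348), Susd4 and Csmd1 rose, and Masp1, C1qbp and C1rl fell, beside the higher epithelial transcripts of that group.

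Between strains on the standard diet, 12 of the 49 genes were lower and 3 higher in WSB/EiJ than in C57BL/6J, where 22% of all genes were called, 2391 lower and 2024 higher. These had C4a (-3.18 ± 0.21, adjusted p = 4.82e-09), C5ar2, C1qc and Clu at the head of those lower and Cd59b (1.39 ± 0.27, adjusted p = 0.00142) of those higher. In CAST/EiJ 14 were lower and 2 higher than in C57BL/6J, where 28% of all genes were called, 3071 lower and 2531 higher. Those lower were led by C1qa (-1.20 ± 0.22, adjusted p = 3.88e-04) and C1qb. NZO/HiLtJ differed from C57BL/6J in 5 of the 49, where 8.36% of all genes were called, with Itgax, Cd93 and Cpn2 higher and C5ar2 and Cd59b lower.

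Genes with the most similar pattern over the 24 libraries were found by Pearson's r of log2 CPM among 11629 genes with a mean of at least 5 CPM, as a description with no test. For C3ar1 they were Nckap1l (0.995), Tyrobp (0.985) and Cd84 (0.982). For C4b they were C4a (0.97), Cyp4f16 (0.968) and Gm15793 (0.939), and for Cfb Gm20547 (0.961), Gmppa (0.93) and C4a (0.929), the first of which shares sequence with it. For Cd55 they were its copy Cd55b (0.913), Osbpl5 (0.807) and Stn1 (0.785). Cfd was closest to Trap1 (0.973), Echdc3 (0.972) and Aldh6a1 (0.969), C3 to Isyna1 (0.9), Gpbp1l1 (0.897) and Cpsf1 (0.893), and C2 to Thbd (0.891), Scara3 (0.887) and Rpap2 (0.877). C6 was closest to Twist1 (0.928), Mfsd7a and Gm14434 (both 0.925), and C7 to Gcnt1 (0.857), Hmga1b (0.841) and Abhd12 (0.82). Without CAST/EiJ high-fat replicate 1 all 3 genes named for Cfd were different ones (Gm9747, Irs1 and Sdr39u1, 0.971 to 0.962), as were all 3 for C6 and C7, while Nckap1l stayed first for C3ar1 (0.997), C4a for C4b (0.973) and Cd55b for Cd55 (0.955). Among the 9 genes themselves the closest pair was Cfb and C4b, both on chromosome 17 (0.88, and 0.93 without that library).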

How the data were processed

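RNA-seq of 24 fat pads was analysed from the deposited table of estimated counts per gene. The authors made these expected counts with RSEM 1.2.1 and Bowtie 0.12.8 after CASAVA 1.8.0, on NCBIM37 (mm9), per the submitters' processing notes; the values are whole numbers and how they were rounded is not given in the sources used here. A second deposited table, of signal, equals these counts divided by each library's upper quartile and was used only to check them. The counts were scaled by trimmed means, filtered with filterByExpr, which removed 17956 genes, and tested with edgeR 4.0.16 (quasi-likelihood, R 4.3.3), with 1 coefficient per group of 3 mice, 16 residual degrees of freedom and Benjamini-Hochberg adjustment over 20035 genes. Of the 37991 genes, 32919 had a symbol. The fit was also run on simulated data with the same spread for all genes and changes placed in the NZO/HiLtJ high-fat group only. No simulated library stood apart, so that run does not show how the fit performs on these libraries. Replicates are separate mice, numbered in accession order only. DESeq2 1.42.0, limma 3.58.1, other scalings, no filter, an adipocyte covariate and left-out libraries were alternatives. Sequences came from GENCODE vM21 transcripts and RefSeq tables (GRCm38.p6), not the build of the counts.

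The 9 genes and all lists were chosen with earlier results of these data known. In each comparison the text names all 9 genes, up to 4 other complement genes per direction with the smallest adjusted p among those called, and for each of the 9 the 3 genes of highest Pearson's r among those with a symbol and a mean of at least 5 CPM.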

Additional observations from a re-analysis of the deposited data

Results flagged for a closer look

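For 3 of the 9 genes the diet difference itself differed between strains (edgeR's quasi-likelihood test of the strain by diet interaction, Benjamini-Hochberg adjusted). C3ar1 had an adjusted p of 0.0017, with log2 differences of 2.27 in NZO/HiLtJ and between -0.16 and 0.31 in the other strains. C4b had an adjusted p of 0.0182, with 0.97 in CAST/EiJ and -0.68 in C57BL/6J. Cd55 had an adjusted p of 0.0282, with -0.61 in NZO/HiLtJ and 0.49 in CAST/EiJ.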

How the results depend on the processing

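No paired analysis was possible because the labels give no replicate numbers, so no mouse of one group is tied to a mouse of another. The number of the 9 genes called changed as follows, and the causes were not tested. The share of all genes called can change with the setting too. In NZO/HiLtJ it went from 4.89% to 11.7% without CAST/EiJ high-fat replicate 1. For most settings below that share is not given. There a change in the 9 genes cannot be told from a change in the background. In CAST/EiJ the diet called 2 with upper-quartile scaling, 3 with the DESeq2 test and 0 with only the 2 groups compared (where edgeR called 0 of 17681 genes and 1409 had an unadjusted p below 0.05). In WSB/EiJ it called 2 with the DESeq2 test, 3 with the adipocyte covariate and 1 with only 2 groups. In NZO/HiLtJ it called 6 without the libraries with Epcam, 5 with the covariate and 7 with only 2 groups. The average over strains called 2 without the filter and 2 with limma-voom. NZO/HiLtJ against C57BL/6J called 5 over both diets, 6 with only 2 groups and 1 with sequence-sharing genes summed, and NZO/HiLtJ against CAST/EiJ called 7 without the Epcam libraries, with the covariate and with only 2 groups. Leaving out 1 library gave 0 to 1 in C57BL/6J, 1 to 5 in NZO/HiLtJ, 0 to 3 in CAST/EiJ, 0 to 4 in WSB/EiJ, 2 to 4 for the average and 1 to 3 for NZO/HiLtJ against C57BL/6J.

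Log2 differences that changed sign were these. With limma-voom, C7 in CAST/EiJ was -0.3, Cfb on average -0.02 and C3 between CAST/EiJ and WSB/EiJ -0.03. Without the Epcam libraries, C3 in CAST/EiJ was -0.46, C3 between CAST/EiJ and WSB/EiJ -0.05, and on average Cfb was -0.09, C4b 0.15 and Cd55 -0.1. With the covariate, Cfd in CAST/EiJ was 0.02, C3 in CAST/EiJ -0.56, C6 in WSB/EiJ 0.77, and on average Cfb was -0.17, C4b 0.01 and C6 0.06. With only 2 groups, Cfb in WSB/EiJ was 0.04. Over both diets, NZO/HiLtJ against C57BL/6J had Cfb -0.02, C4b 0.25 and C6 -0.43, CAST/EiJ against C57BL/6J had Cfb 0.41, NZO/HiLtJ against CAST/EiJ had Cfb -0.43 and Cd55 -0.04, and CAST/EiJ against WSB/EiJ had Cfd 0.17. Summed with sequence-sharing genes, C2 in CAST/EiJ was 0.76 and Cfb on average -0.11, NZO/HiLtJ against C57BL/6J had Cfb -0.4 and C4b 0.08, and C2 was 1.04 for NZO/HiLtJ and 0.77 for CAST/EiJ against WSB/EiJ. Leaving out 1 library gave, in C57BL/6J, C3 -0.04 to 0.48, C7 -0.4 to 0.37 and Cd55 -0.14 to 0.07; in NZO/HiLtJ, C4b -0.15 to 0.03; in CAST/EiJ, C3 -0.47 to 0.78 and C2 -0.29 to 0.01; in WSB/EiJ, Cfb -0.17 to 0.07 and C6 -0.88 to 0.36; on average, Cfb -0.11 to 0.06 and C4b -0.1 to 0.04; for NZO/HiLtJ against C57BL/6J, Cfb -0.13 to 0.18 and C4b -0.16 to 0.08; for NZO/HiLtJ against WSB/EiJ, C7 -0.05 to 0.4; and for CAST/EiJ against WSB/EiJ, C3 -0.31 to 0.19.

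Calls also lost were the average fall of Cfd with DESeq2 size factors (adjusted p = 0.0503), upper-quartile scaling (0.0501), no filter (0.0636) and limma-voom (0.093), the average rise of C7 without the filter (0.0544) and with limma-voom (0.23), Cfd between NZO/HiLtJ and WSB/EiJ with these (0.0561 and 0.249), and C3 between CAST/EiJ and C57BL/6J without the filter (0.0535). With limma-voom C6 lost CAST/EiJ against C57BL/6J (0.148), WSB/EiJ against C57BL/6J (0.17), NZO/HiLtJ against WSB/EiJ (0.0758) and any strain difference on the high-fat diet (0.165). Cd55 lost NZO/HiLtJ against WSB/EiJ over both diets (0.112), and C2 lost NZO/HiLtJ against C57BL/6J when summed (0.352). The Epcam libraries include the 3 WSB/EiJ high-fat libraries, so without them the WSB/EiJ diet difference was not run. The average over strains and the test of any strain difference on the high-fat diet then left out WSB/EiJ. C4b was not called in that strain test (0.229). It lacked the strain with the lowest C4b, so it is not the same test as with all libraries. The interval of the Cfd diet difference in NZO/HiLtJ ran from -4.25 to 0.19 with all libraries, with a standard error of 1.05, against 0.49 without CAST/EiJ high-fat replicate 1.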
